A study of Homo sapiens with 10 samples.

Results

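SLFN11, the kinase ATR and the enzymes that remodel stalled replication forks were followed in ovarian cancer cells that had been grown in a PARP inhibitor. The 10 genes were SLFN11, ATR, ETAA1, TOPBP1, TIMELESS, CHEK1, WEE1, SMARCAL1, ZRANB3 and HLTF, taken by symbol from the 25370 genes of the count table, and all 10 had enough reads to be tested. The tested cells were ABTr1, ABTr2, ABTr3 and ABTr4, which are 4 veliparib-resistant clones of PEO1, and the cells they were set against were parental PEO1. PEO1 is an established line from a human ovarian carcinoma that carries a BRCA2 mutation, and veliparib (ABT888) inhibits PARP enzymes. The clones had spent 6 months in 40 µM veliparib and came off the drug 4 to 5 days before RNA was taken, and all cells shared one growth medium. Each group had 2 libraries of polyadenylated RNA, numbered replicate 1 and replicate 2, and each resistant group was 1 clone. The labels do not say how the cultures were separated, so p-values measure only the spread between these libraries, which may be technical.

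ATR is the kinase that responds to single-stranded DNA coated with RPA at stalled forks. It is switched on by TOPBP1 or, on a separate path, by ETAA1, and it acts through CHK1, the kinase encoded by CHEK1, with TIMELESS holding the fork together. WEE1 restrains the cyclin-dependent kinases alongside CHK1. SMARCAL1, ZRANB3 and HLTF are DNA translocases that turn a stalled fork back into a reversed fork. SLFN11 binds RPA at stressed forks and blocks replication irreversibly, and its loss is a known route to resistance against PARP inhibitors and other drugs that damage replicating DNA.

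TIMELESS had the largest negative difference of the 10 genes, which did not pass without the replicate term described further on. The promoter windows of TIMELESS and of the 3 genes that were higher in the clones are printed. They run from 250 bases before to 50 bases after the annotated start, 5′ to 3′ on the gene's strand, from RefSeq on GRCh38.p14; 9 of the 10 genes had a window. Capitals mark 4 searched motifs wherever they or their reverse complements occurred: the ETS core CCGGAA, the E2F site TTTCCCGC, the CHR element TTTGAA and the CCAAT box, and the other E2F form, TTTGGCGC, matched nothing in the 4 windows. No match overlapped another in these windows.
SLFN11, chr17:35373572-35373871, minus strand: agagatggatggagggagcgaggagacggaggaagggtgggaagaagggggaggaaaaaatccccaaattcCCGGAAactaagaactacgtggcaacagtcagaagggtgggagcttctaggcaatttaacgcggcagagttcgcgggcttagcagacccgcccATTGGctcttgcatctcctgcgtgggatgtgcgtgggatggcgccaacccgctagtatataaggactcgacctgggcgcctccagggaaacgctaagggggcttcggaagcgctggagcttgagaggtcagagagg
ETAA1, chr2:67397083-67397382, plus strand: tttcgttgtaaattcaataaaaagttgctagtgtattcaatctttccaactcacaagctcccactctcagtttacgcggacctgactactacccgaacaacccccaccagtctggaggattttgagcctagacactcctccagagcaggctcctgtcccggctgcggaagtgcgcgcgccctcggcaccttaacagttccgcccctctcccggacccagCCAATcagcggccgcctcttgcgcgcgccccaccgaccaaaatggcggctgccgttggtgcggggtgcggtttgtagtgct
HLTF, chr3:149086484-149086783, minus strand: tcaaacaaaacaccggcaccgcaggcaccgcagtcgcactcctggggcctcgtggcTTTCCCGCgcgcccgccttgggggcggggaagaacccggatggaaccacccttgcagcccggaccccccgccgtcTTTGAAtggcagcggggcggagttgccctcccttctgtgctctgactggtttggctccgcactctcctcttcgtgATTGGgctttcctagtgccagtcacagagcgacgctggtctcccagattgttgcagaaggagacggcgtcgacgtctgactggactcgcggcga
TIMELESS, chr12:56449377-56449676, minus strand: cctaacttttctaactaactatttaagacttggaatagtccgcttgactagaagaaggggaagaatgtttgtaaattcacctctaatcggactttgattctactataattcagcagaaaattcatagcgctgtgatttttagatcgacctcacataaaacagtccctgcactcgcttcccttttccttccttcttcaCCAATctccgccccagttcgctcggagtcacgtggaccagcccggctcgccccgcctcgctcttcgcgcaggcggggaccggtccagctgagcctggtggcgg
All 4 windows held a CCAAT box, which was present in 34.6% of the 35116 RefSeq windows searched on both strands. The SLFN11 window was the one of the 4 with an ETS core, found in 17.2% of all windows, and its first base lay at position -179 from the start. The HLTF window was the one of the 4 with an E2F site, at position -194 and in 1.63% of all windows, and with a CHR element, at position -119 and in 15.2% of all windows. Among the windows not printed, those of ATR, TOPBP1 and ZRANB3 also held an ETS core, and ZRANB3 a CHR element. A match is a description of letters and not a measured binding site.

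The count tables held between 20640602 and 55488566 reads per library in genes, and replicate 1 was the deeper library in all 5 groups. Levels are given in CPM, which are counts scaled to a common library size after TMM normalisation, and errors for the clones are the SD over the 4 clone means. The cells are labelled epithelial, and all 5 of 5 epithelial markers (EPCAM, CDH1, KRT8, KRT18 and KRT19) were lower in the clones by the edgeR test, where 8.79% of all tested genes were lower, with a summed level of 1848 to 2377 CPM in clone libraries, against 6166 to 9404 CPM in parental libraries. CDH1, which encodes E-cadherin, was near 0 in the clones, at 0.043 to 9.56 CPM, against 147 and 358 CPM in parental PEO1 (edgeR adjusted p = 0.000334), while EPCAM was at 69.4 to 187 CPM in clones, against 544 and 543 CPM. Of markers of other cell types, CD68 was the 1 of 4 leukocyte markers called higher and CDH5 the 1 of 4 endothelial markers called lower, whereas 0 of 5 fibroblast markers were called; only 2 of the leukocyte and 2 of the fibroblast markers had enough reads to be tested. With the replicate block, 16.3% of all tested genes were called higher, among them PDGFRB of the fibroblast list and KDR of the endothelial list. Their log2 fold changes were 2.18 (edgeR adjusted p = 0.0175) and 2.29 (edgeR adjusted p = 0.0303). Without the block PDGFRB passed in ABTr1 (edgeR adjusted p = 0.0418). Both genes were near the floor, at no more than 1.48 and 2.28 CPM in any clone library. Parental PEO1 had 5 and 4 reads of PDGFRB and 15 and 1 reads of KDR. The summed level of the leukocyte markers was 55.7 to 141 CPM in clones against 32.4 to 35.4 CPM in parental cells. It was 2.01 to 16.3 CPM against 15.5 to 62.3 CPM for the endothelial markers. For the fibroblast markers it was 1.93 to 16.7 CPM against 8.28 to 8.63 CPM, with DCN, LUM and COL3A1 at 0 in every library. The part of these markers in the results was not tested. For RNA from bulk cultures, fewer cells expressing a gene and less RNA per cell cannot be told apart.

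SLFN11, HLTF and ETAA1 were higher in the clones than in parental PEO1, each by about 0.9 to 1.1 on the log2 scale. None of the 10 genes passed the test in the lower direction without the replicate term described further on. The test was edgeR's quasi-likelihood test of the mean of the 4 clones against parental PEO1, with Benjamini-Hochberg adjustment over 16490 genes. At an adjusted p under 0.05 it called 3 of 10 genes higher, against a background of 7.17% of all genes called higher, 8.79% called lower and 16.0% called either way. The median log2 fold change of the 10 genes was 0.26, beside 0.02 for all tested genes.

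**Figure D1:**
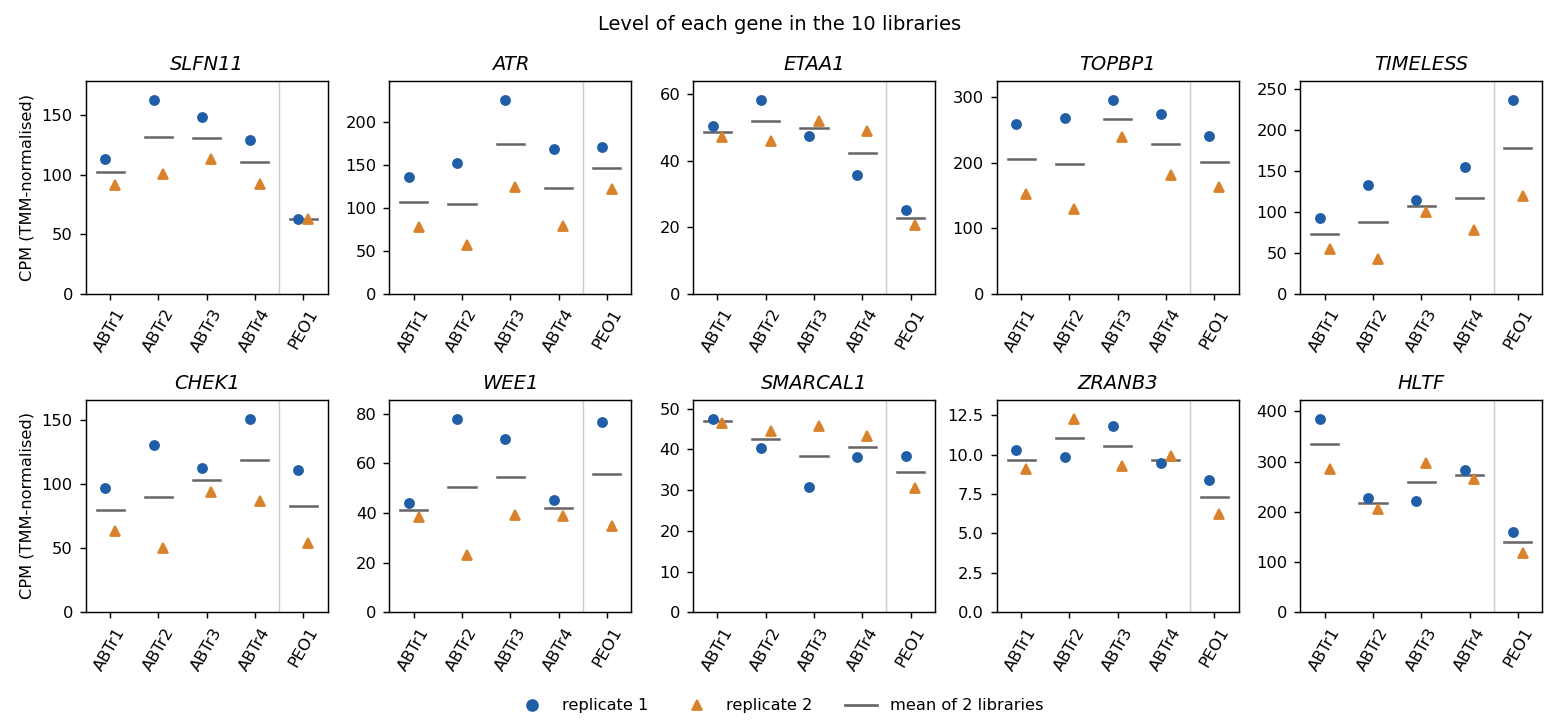
Level of each of the 10 genes in CPM (vertical axes, from 0) in the 2 libraries of each clone and of parental PEO1, with circles for replicate 1, triangles for replicate 2 and a line at the mean of the 2 libraries. All 8 clone libraries lie above both parental libraries for SLFN11, ETAA1, ZRANB3 and HLTF, and replicate 2 lies under replicate 1 in every group for ATR, TOPBP1, TIMELESS, CHEK1 and WEE1.

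SLFN11 lies on the minus strand of chromosome 17 (hg19 17:33677329-33700720) with 5276 bases of exon. Its level in replicates 1 and 2 was 113 and 91.1 CPM in ABTr1, 162 and 101 CPM in ABTr2, 148 and 113 CPM in ABTr3 and 129 and 91.8 CPM in ABTr4, against 62.6 and 62.8 CPM in parental PEO1. All 8 clone libraries were above both parental libraries, and no clone had lost the transcript. The clones averaged 119 ± 14.7 CPM (SD, n = 4 clones) and parental cells 62.7 ± 0.121 CPM (SD, n = 2 libraries), a 1.88-fold higher level. This was a log2 fold change of 0.91 with an SE of 0.26 (edgeR adjusted p = 0.0445). This call sat close to the threshold and held in 6 of the 16 alternative settings. Among the settings where it no longer passed were any one of 8 of the 10 libraries left out and no filter on low counts. The log2 fold change stayed between 0.82 and 0.97 over all settings. Replicate 2 of ABTr2 and replicate 2 of ABTr4 were not among these 8 libraries.

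Single clones did not pass the edgeR test for SLFN11. Relative to parental PEO1 the log2 fold change was 0.70 in ABTr1 (edgeR adjusted p = 0.181), 1.07 in ABTr2 (edgeR adjusted p = 0.0776), 1.06 in ABTr3 (edgeR adjusted p = 0.076) and 0.82 in ABTr4 (edgeR adjusted p = 0.131). With the replicate number as a block all 4 passed, the largest edgeR adjusted p being 0.0261 in ABTr1. The order of the group means was ABTr2, ABTr3, ABTr4, ABTr1 and then PEO1, and neighbours among the clones had overlapping libraries. Per kilobase of exon, SLFN11 ranked 3 of the 10 genes in the clones (22.5 CPM per kb) and 7 of 10 in parental cells (11.9 CPM per kb).

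ATR, the kinase itself (hg19 3:142168077-142297668, minus strand), was not called. Its level in clone libraries had a lowest value of 56.7 CPM, a median of 129.9 CPM and a highest value of 226 CPM, against 171 and 122 CPM in parental PEO1. The clone libraries spanned both parental values. The mean log2 fold change was -0.23 with an SE of 0.43 (edgeR adjusted p = 0.764), and the 95% interval ran from -1.22 to 0.76. That fit leaves the replicate number out. With the number as a block the log2 fold change was -0.32 with an SE of 0.17 (edgeR adjusted p = 0.184). ABTr3 had the highest ATR mean, at 175 ± 71.8 CPM, and ABTr2 the lowest of the 5 groups, at 105 ± 68.0 CPM (SD, n = 2 libraries each).

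Of the ATR activators, ETAA1 was higher and TOPBP1 was not called. ETAA1, an RPA-binding protein that activates ATR directly, is encoded on chromosome 2 (hg19 2:67624442-67637533, plus strand). It had 50.5 and 47.1 CPM in ABTr1, 58.2 and 46.1 CPM in ABTr2, 47.6 and 52.1 CPM in ABTr3 and 35.7 and 49.1 CPM in ABTr4, against 25.1 and 20.7 CPM in parental PEO1. The groups did not overlap, and the lowest clone library was the first of ABTr4. Clones averaged 48.3 ± 4.17 CPM (SD, n = 4) and parental cells 22.9 ± 3.14 CPM (SD, n = 2), a 2.10-fold higher level. The log2 fold change was 1.07 with an SE of 0.22 (edgeR adjusted p = 0.013), the smallest adjusted p of the 10 genes. It passed in 15 of the 16 alternative settings and was lost without replicate 2 of PEO1 (edgeR adjusted p = 0.108, log2 fold change 0.93 to 1.18 over all settings).

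TOPBP1, the activator that works with the 9-1-1 clamp, had a lowest value of 129 CPM, a median of 249 CPM and a highest value of 295 CPM in clone libraries, against 241 and 162 CPM in parental PEO1. The groups overlapped, and the log2 fold change was 0.15 with a 95% interval from -0.62 to 0.92 (edgeR adjusted p = 0.811). The per-length ratio of ETAA1 to TOPBP1 counts was 0.318 and 0.505 in ABTr1, 0.355 and 0.580 in ABTr2, 0.263 and 0.355 in ABTr3 and 0.212 and 0.440 in ABTr4, against 0.170 and 0.208 in parental PEO1. Every clone library had a higher ratio than either parental library, by a small margin in the first library of ABTr4. TOPBP1 still had the higher level per kilobase in every library.

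TIMELESS (hg19 12:56810157-56843200, minus strand), which travels with the fork and helps claspin pass the signal to CHK1, had the largest negative difference of the 10 genes. It had 92.1 and 54.3 CPM in ABTr1, 133 and 42.0 CPM in ABTr2, 114 and 99.4 CPM in ABTr3 and 154 and 78.2 CPM in ABTr4, against 236 and 119 CPM in parental PEO1. Each clone library was under the parental library of the same replicate number, whereas 2 of the 8 clone libraries were above the lower parental one. Of all tested genes, 19.2% had each clone library under its same-numbered parental library. The log2 fold change was -0.91 with an SE of 0.43, which did not pass (edgeR adjusted p = 0.189), and with the replicate block it was -0.90 with an SE of 0.21, which did (edgeR adjusted p = 0.00868). Of all genes, 34.6% were called in that fit, 18.2% lower. Within replicate 1 the difference was -0.96 and within replicate 2 it was -0.87 on the log2 scale.

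CHEK1 and WEE1, the effector kinases, were not called. CHEK1 had a lowest value of 50.0 CPM, a median of 95.5 CPM and a highest value of 151 CPM in clone libraries, against 111 and 54.2 CPM in parental PEO1. WEE1 had a lowest value of 23.0 CPM, a median of 41.6 CPM and a highest value of 77.9 CPM in clone libraries, against 76.5 and 34.8 CPM in parental PEO1. Both genes overlapped between the groups, and their highest and lowest clone libraries lay outside the parental values on either side. The log2 fold change was 0.23 for CHEK1 (edgeR adjusted p = 0.752, 95% interval -0.71 to 1.18) and -0.25 for WEE1 (edgeR adjusted p = 0.746, 95% interval -1.26 to 0.75). In this fit without the replicate block the CHEK1 interval includes a rise, and the WEE1 interval a fall, as large as the change of SLFN11.

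Among the fork-reversal translocases, HLTF was higher, and SMARCAL1 and ZRANB3 had positive differences that did not pass. HLTF, which also extends ubiquitin chains on PCNA, is encoded on chromosome 3 (hg19 3:148747904-148804341, minus strand). It had 385 and 285 CPM in ABTr1, 227 and 206 CPM in ABTr2, 222 and 296 CPM in ABTr3 and 283 and 265 CPM in ABTr4, against 160.0 and 119 CPM in parental PEO1. All 8 clone libraries were above both parental libraries, and both libraries of ABTr1 were above those of ABTr2. Clones averaged 271 ± 48.9 CPM (SD, n = 4) and parental cells 139 ± 29.1 CPM (SD, n = 2), a 1.92-fold higher level. Its log2 fold change was 0.94 with an SE of 0.23 (edgeR adjusted p = 0.0261). It did not pass without replicate 1 of ABTr1, replicate 2 of ABTr3, replicate 1 of PEO1 or replicate 2 of PEO1, where edgeR adjusted p-values reached 0.198. Per kilobase, HLTF had the highest mean of the 10 genes in the clones (50.7 CPM per kb) and ranked 3 in parental cells (26.1 CPM per kb). An antisense gene, HLTF-AS1, shares 147 exon bases with HLTF, and it had at most 2 reads in any library.

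SMARCAL1, an annealing helicase bound to RPA, had a lowest value of 30.7 CPM, a median of 43.9 CPM and a highest value of 47.5 CPM in clone libraries, against 38.4 and 30.4 CPM in parental PEO1. ZRANB3, a translocase recruited by ubiquitinated PCNA, had a lowest value of 9.07 CPM, a median of 9.88 CPM and a highest value of 12.3 CPM in clone libraries, against 8.41 and 6.23 CPM in parental PEO1. For ZRANB3 the groups did not overlap, and for SMARCAL1 6 of the 8 clone libraries were above both parental ones. The mean difference on the log2 scale was 0.29 with an SE of 0.21 for SMARCAL1 (edgeR adjusted p = 0.401) and 0.48 with an SE of 0.24 for ZRANB3 (edgeR adjusted p = 0.216). ZRANB3 was the lowest of the 10 genes per kilobase, at 1.45 CPM per kb in clones and 1.04 CPM per kb in parental cells. Counting libraries, 4 of 10 genes had all 8 clone libraries above both parental libraries and 0 had all below, whereas 14.5% of all tested genes were wholly above and 12.5% wholly below.

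**Figure D2:**
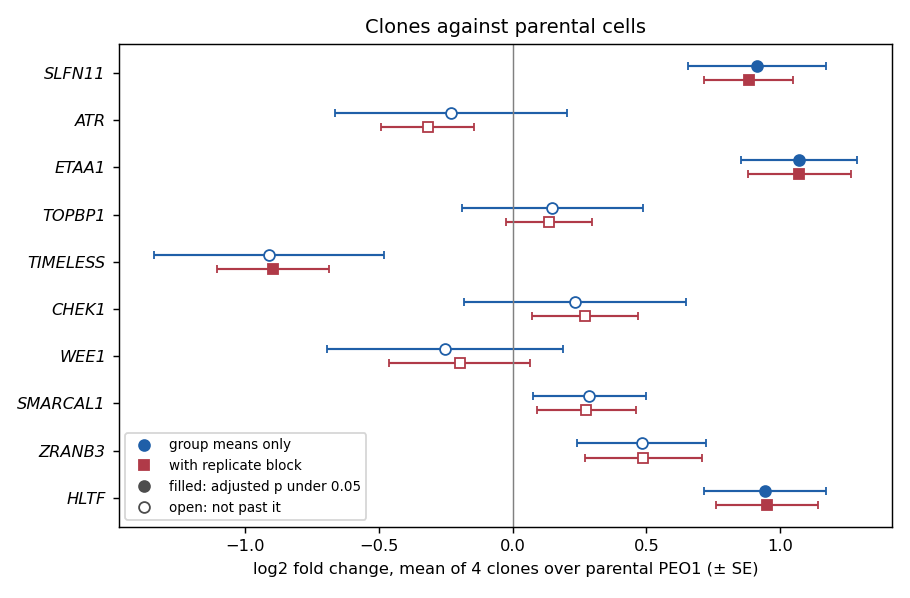
Log2 fold change (± SE) of the mean of 4 clones over parental PEO1 for each gene, from the fit on group means (circles) and the fit with a replicate block (squares), filled where the edgeR adjusted p was under 0.05. SLFN11, ETAA1 and HLTF are filled in both fits at 0.88 to 1.07, and TIMELESS is filled at -0.90 with the block.

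Each clone was also compared with parental PEO1 on its own. Without the block, ETAA1 passed in ABTr1 (log2 fold change 1.09, edgeR adjusted p = 0.0353), ABTr2 (1.19, edgeR adjusted p = 0.0338) and ABTr3 (1.12, edgeR adjusted p = 0.038), and had 0.89 in ABTr4 (edgeR adjusted p = 0.0648). HLTF passed in ABTr1, at 1.26 (edgeR adjusted p = 0.0266), and had 0.64 in ABTr2 (edgeR adjusted p = 0.209), 0.90 in ABTr3 (edgeR adjusted p = 0.0881) and 0.97 in ABTr4 (edgeR adjusted p = 0.0591). The number of genes of the 10 that passed was 2 in ABTr1, 1 in ABTr2, 1 in ABTr3 and 0 in ABTr4, where 9.77%, 6.11%, 7.37% and 9.71% of all genes passed in the same order. For ABTr4, 3 genes had an unadjusted p under 0.05, and DESeq2 called 2 and limma-voom 0. The shares of all genes for these counts are not given here, so they have no background beside them. With the replicate block the counts were 4, 3, 3 and 3 genes in the same order, with 30.1%, 22.1%, 22.6% and 27.0% of all genes. The block added SLFN11 in each clone, HLTF in ABTr3 and ABTr4, ETAA1 in ABTr4, and TIMELESS as lower in ABTr1 and ABTr2. These 4 comparisons share the parental libraries.

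Differences among the clones were not called for any of the 10 genes. In the edgeR test of any difference among the 4 clones the smallest adjusted p was 0.985, and 0 of 10 genes had an unadjusted p under 0.05; DESeq2 and limma-voom also called 0, and 0.00606% of all genes were called. In the comparisons of 1 clone with the mean of the other 3, edgeR, DESeq2 and limma-voom each called 0 of the 10 genes, with 0 at an unadjusted p under 0.05, and edgeR called 0.0121% of all genes for ABTr1 and 0% for the others. The smallest adjusted p among these was for HLTF in ABTr1, with a log2 difference of 0.43 from the other 3 clones (edgeR adjusted p = 0.64).

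**Figure D3:**
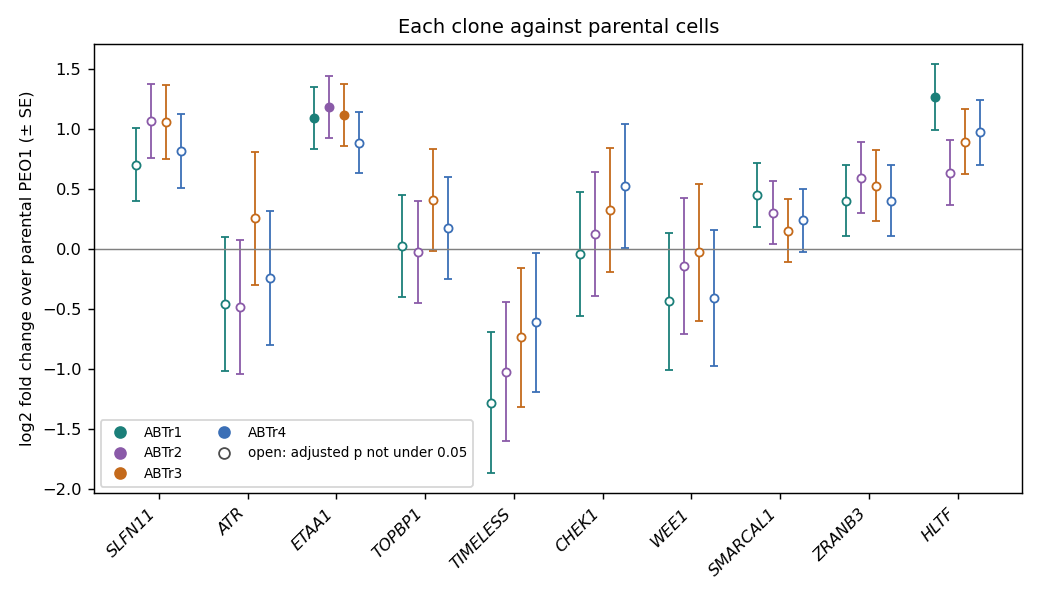
Log2 fold change (± SE) of each clone over parental PEO1 for each gene, from the fit on group means, with filled circles where the edgeR adjusted p was under 0.05. ETAA1 is filled in ABTr1, ABTr2 and ABTr3 and HLTF in ABTr1, and all 4 clones lie above 0 for SLFN11, ETAA1, SMARCAL1, ZRANB3 and HLTF and below 0 for TIMELESS and WEE1.

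The ATR kinase, TOPBP1, TIMELESS and both effector kinases also differed between the replicate numbers, in clones and parental cells alike. In the fit with the replicate term, replicate 2 was lower than replicate 1 for ATR by a log2 change of -0.93 (edgeR adjusted p = 0.00187), for TIMELESS by -0.92 (edgeR adjusted p = 0.00518), for WEE1 by -0.82 (edgeR adjusted p = 0.019), for CHEK1 by -0.82 (edgeR adjusted p = 0.00472) and for TOPBP1 by -0.66 (edgeR adjusted p = 0.00506). These 5 genes were lower in replicate 2 in all 5 groups, parental PEO1 included. SLFN11 passed as well, at -0.38 (edgeR adjusted p = 0.0446), and was lower in the 4 clones while its parental libraries were level. ETAA1 (-0.02, edgeR adjusted p = 0.913), HLTF (-0.14, edgeR adjusted p = 0.497), SMARCAL1 (0.11, edgeR adjusted p = 0.604) and ZRANB3 (-0.12, edgeR adjusted p = 0.639) did not pass. In all, 6 of 10 genes were called lower and 0 higher in replicate 2, against 14.8% and 15.5% of all genes, or 30.3% either way. The SLFN11 call was lost when any 1 clone library was left out and with no filter on low counts. WEE1 was lost as well when any 1 library of ABTr2 or ABTr3 was left out, which left 4 genes.

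Cell cycle markers moved with the replicate number too. All 11 of 11 listed markers, MKI67 and TOP2A among them, were lower in replicate 2, with a median log2 change of -0.99 and a range from -1.80 to -0.60, beside 0.01 for all genes. Their summed level was 893 to 2885 CPM in clone libraries, against 3049 CPM in replicate 1 and 1319 CPM in replicate 2 of parental PEO1. Between clones and parental cells 0 of the 11 markers were called in edgeR, and with the replicate block MKI67 was lower (log2 fold change -0.96, edgeR adjusted p = 0.0038). The part of these markers in the replicate difference of ATR, TOPBP1, TIMELESS, CHEK1, WEE1 and SLFN11 was not tested, and the deeper sequencing of replicate 1 moves with it as well. Transcript length also moved with the replicate number in ABTr2, ABTr3 and ABTr4. The median centred log2 CPM of the longest genes, those of at least 4828.5 exon bases, was -0.12, -0.09 and -0.11 in replicate 2 of these clones and 0.04, 0.08 and -0.01 in their replicate 1. It was 0.07 and 0.09 in replicates 2 and 1 of ABTr1, and 0.01 and 0.02 in those of parental PEO1. Of the genes called lower in replicate 2, ATR, TOPBP1, TIMELESS, CHEK1 and SLFN11 are among these long genes and WEE1 is not, while HLTF and ZRANB3 are among them and were not called. The part of transcript length was not tested. For the 3 called genes all 8 clone libraries lay above both parental libraries. A positive difference within each replicate number follows from that and is no separate check. On the log2 scale the clones differed from parental cells by 1.12 in replicate 1 and 0.65 in replicate 2 for SLFN11. The same differences were 0.90 and 1.21 for ETAA1, and 0.77 and 1.13 for HLTF.

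**Figure D4:**
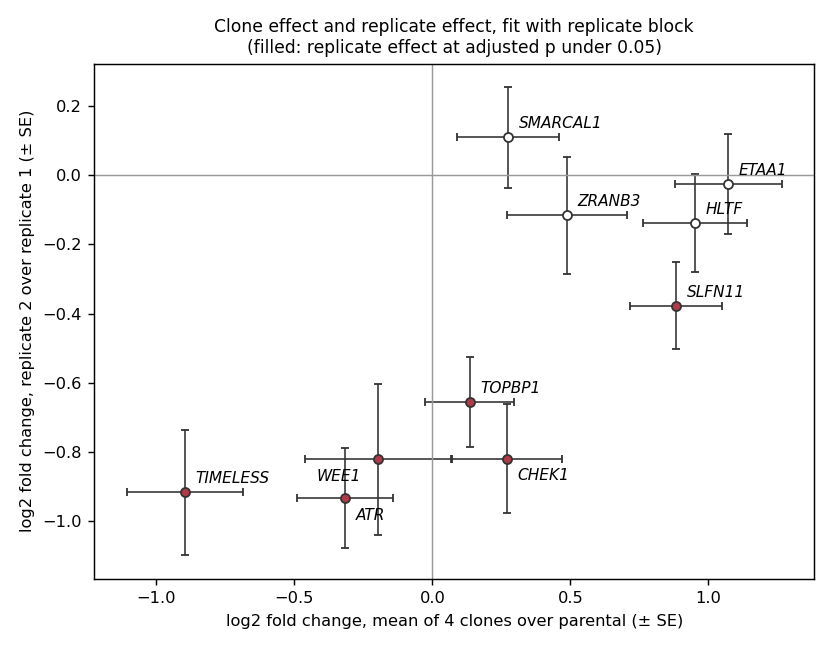
Each gene's log2 fold change of the clones over parental PEO1 (horizontal, ± SE) against its log2 fold change of replicate 2 over replicate 1 (vertical, ± SE), both from the edgeR fit with the replicate term, filled where the replicate effect passed. ATR, TOPBP1, TIMELESS, CHEK1, WEE1 and SLFN11 lie below 0 on the vertical axis at -0.93 to -0.38, and ETAA1, HLTF, SMARCAL1 and ZRANB3 lie between -0.14 and 0.11.

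In the surrounding pathway genes were called in both directions, and the counts stand beside 7.17% of all tested genes called higher and 8.79% lower, or 16.3% and 18.2% with the replicate block. Of 13 genes for loading and activating ATR, 2 were higher and 0 lower, with a list median of 0.08; with the replicate block 3 were higher and 1 lower. HUS1, a subunit of the 9-1-1 clamp, averaged 64.9 ± 11.8 CPM in clones and 31.2 ± 5.99 CPM in parental cells (SD, n = 4 and 2; log2 fold change 1.03, edgeR adjusted p = 0.0174). RPA2, the middle subunit of RPA, averaged 69.2 ± 11.1 CPM in clones and 35.9 ± 5.12 CPM in parental cells (SD, n = 4 and 2; log2 fold change 0.93, edgeR adjusted p = 0.0202). The clone libraries of both genes were above the parental ones. For HUS1 they were at 43.1 to 83.2 CPM against 27.0 to 35.5 CPM. For RPA2 they were at 51.4 to 88.3 CPM against 32.3 to 39.5 CPM. RPA3 of this list was also wholly above, whereas RAD17 was wholly below, at 25.3 to 40.6 CPM against 44.9 to 46.5 CPM. Of all tested genes, 14.5% were wholly above and 12.5% wholly below. HUS1 was lost without replicate 2 of PEO1, and RPA2 without either PEO1 library or without replicate 1 of ABTr1.

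Downstream of ATR, 0 of 3 mediators of CHK1 and 0 of 10 targets of CHK1 and WEE1 were called in edgeR, with list medians of 0.11 and -0.21. CDC25C, a phosphatase inhibited by CHK1, had the smallest adjusted p of the targets, with 5.73 ± 0.790 CPM in clones and 12.7 ± 4.47 CPM in parental cells (SD, n = 4 and 2; log2 fold change -1.15, edgeR adjusted p = 0.0635). With the replicate block CDC25C was lower (edgeR adjusted p = 0.00727), as 1 of 2 targets called in that fit. WDHD1, the mediator with the smallest adjusted p, had a log2 fold change of -0.22 (edgeR adjusted p = 0.772).

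Of 21 genes for the reversal, protection or degradation of forks, 2 were lower and 0 higher, with a list median of -0.03. The share called lower was near that of all genes. The list mixes both directions of action, so its counts do not describe a loss or gain of fork protection. SHPRH, a ubiquitin ligase for PCNA that is related to HLTF, was lower where HLTF was higher, at 27.0 ± 3.66 CPM in clones and 40.9 ± 6.21 CPM in parental cells (SD, n = 4 and 2; log2 fold change -0.61, edgeR adjusted p = 0.0476). KMT2D, a histone H3 lysine methyltransferase, averaged 83.5 ± 20.3 CPM in clones and 188 ± 20.9 CPM in parental cells (SD, n = 4 and 2; log2 fold change -1.20, edgeR adjusted p = 0.042). SHPRH was lost with any 1 library left out, in limma-voom, with no filter and with clones as units. KMT2D was lost with any of 7 of the 10 libraries left out and in limma-voom. With the replicate block 3 genes of this list were higher and 5 lower.

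In the parallel ATM branch, 1 of 8 genes was higher and 1 lower, and with the replicate block 2 were higher and 3 lower, where 16.0% and 34.6% of all genes were called in these fits. ATM, the kinase that answers double-strand breaks, averaged 104 ± 7.49 CPM in clones and 52.1 ± 13.2 CPM in parental cells (SD, n = 4 and 2; log2 fold change 1.00, edgeR adjusted p = 0.0155). RAD50, of the complex that recruits ATM to breaks, averaged 36.6 ± 2.11 CPM in clones and 58.5 ± 13.9 CPM in parental cells (SD, n = 4 and 2; log2 fold change -0.68, edgeR adjusted p = 0.0491). ATM was thus called higher while ATR was not called, although the difference between the 2 genes was not tested. ATM was lost without replicate 1 of PEO1. RAD50 was lost without any 1 of 9 libraries, replicate 1 of PEO1 being the exception. It was also lost in limma-voom, with no filter and with clones as units.

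Of the other Schlafen genes, 3 of 5 were expressed enough to be tested and 1 passed. SLFN12, a relative that is known as a nuclease activated by PDE3A, averaged 20.7 ± 2.80 CPM in clones and 11.9 ± 1.26 CPM in parental cells (SD, n = 4 and 2; log2 fold change 0.79, edgeR adjusted p = 0.0354). SLFN13 (0.45, edgeR adjusted p = 0.276) and SLFN5 (-0.04, edgeR adjusted p = 0.972) did not pass. For SLFN5 the clone libraries, at 42.1 to 85.9 CPM, lay between the parental libraries, at 17.03 and 109 CPM. Its value therefore depended on which parental library was kept. The log2 fold change was -0.87 without replicate 1 of PEO1 and 1.85 without replicate 2 of PEO1. The SLFN12 call was lost with any 1 of 9 libraries left out, the exception being replicate 1 of ABTr1. It was also lost with no filter on low counts.

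Of 3 factors reported to control SLFN11 in other tumours, FLI1 was called higher. FLI1 is an ETS factor, and a fusion protein that holds part of it drives SLFN11 in Ewing sarcoma. No fusion was looked for here. FLI1 had 1920 reads in the 8 clone libraries and 2 reads in the 2 parental libraries. The depth-adjusted ratio of FLI1 was 205.8, with a 95% counting interval from 56.9 to 1701 (edgeR adjusted p = 0.00178 over the libraries). Its level in the clones was 6.54 ± 1.50 CPM (SD, n = 4). ETS1, another ETS factor, averaged 535 ± 116 CPM in clones and 162 ± 144 CPM in parental cells (SD, n = 4 and 2; log2 fold change 1.69, edgeR adjusted p = 0.134) and passed with the replicate block (1.90, edgeR adjusted p = 0.00125). EZH2, a histone methyltransferase that silences SLFN11 in small cell lung cancer, had a log2 fold change of -0.53 (edgeR adjusted p = 0.425) and was called lower with the block (edgeR adjusted p = 0.0321). Its clones differed in direction, with block values of -0.96 in ABTr1, -0.83 in ABTr2 and -0.40 in ABTr3 and of 0.20 in ABTr4, and without replicate 1 of PEO1 the mean in the fit without the block was 0.07. ETS1 was 3.10 without replicate 1 of PEO1 and 0.99 without replicate 2. The part of these factors in the level of SLFN11 was not tested.

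**Figure D5:**
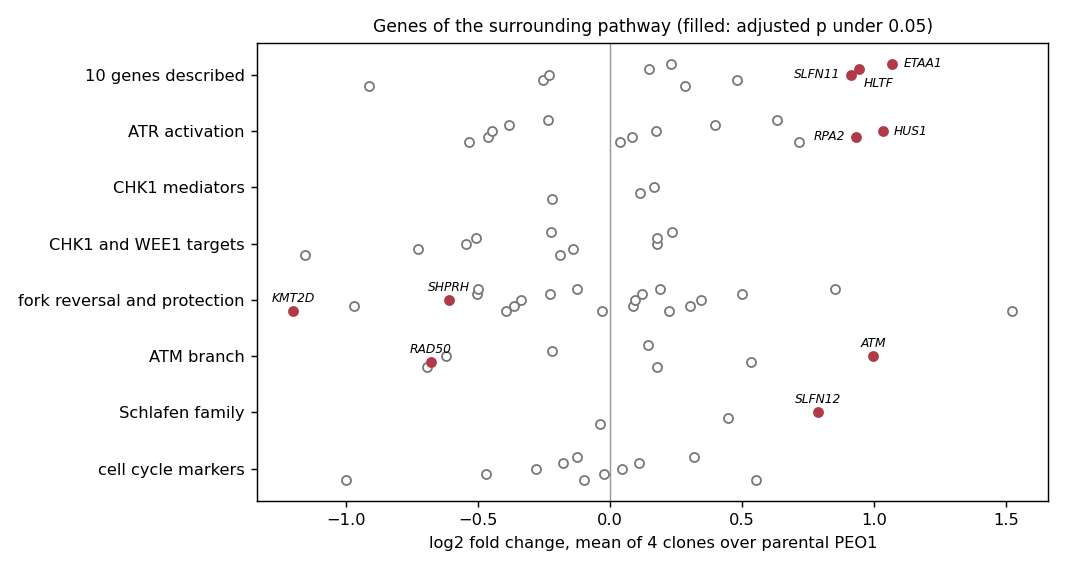
Log2 fold change of the mean of 4 clones over parental PEO1 (horizontal axis) for each tested gene of the 10 described and of 7 lists of related genes (rows; the factors that control SLFN11 are not plotted), filled and named where the edgeR adjusted p was under 0.05. The named genes on the positive side are SLFN11, ETAA1, HLTF, HUS1, RPA2, ATM and SLFN12, and those on the negative side are SHPRH, KMT2D and RAD50.

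Likeness of pattern was measured as the root mean square difference of log2 CPM, each gene centred on its own mean, over the 10 libraries. Among 9916 genes of at least 10 CPM, TBX18 was most like SLFN11, at 0.124, followed by LRRCC1, ZNF268, TNFRSF10B and RAB11FIP5 at 0.179 to 0.186, where the median gene was at 0.580. SFXN3 was most like ETAA1, at 0.159, followed by AGPAT4, ANKMY2, TFE3 and FBXO17 at 0.183 to 0.198, where the median gene was at 0.609. Within the 10 genes, CHEK1 and TOPBP1 were the closest pair, at 0.206, and ETAA1 and TIMELESS the farthest, at 0.985. SLFN11 and ETAA1 were each other's nearest of the 10, at 0.298, and SMARCAL1 and ZRANB3 were each other's nearest at 0.264. These points share libraries and depth, so the values describe the pattern and carry no p.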

How the data were processed

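RNA sequencing libraries of 4 veliparib-resistant clones and parental PEO1 were analysed, 2 per group. The deposited values are raw counts of reads per gene; per the submitters' processing notes the authors aligned reads to hg19 with TopHat2 2.0.14 and counted them with featureCounts 1.4.6. The kit does not mark strand, and how the counting treated strand or multi-mapped reads is not given in the sources used here. The design text speaks of 15 samples in 3 experiments, and the 10 libraries here are those analysed. The descriptions number the clones otherwise than the library names do, and the library names are used here.

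Counts of all genes were fitted in edgeR 4.0.16 (R 4.3.3) with TMM scaling, the filterByExpr filter (minimum count 10, 16490 of 25370 genes kept), 5 groups and 5 residual degrees of freedom. CPM carry no length correction unless given per kilobase of exon. Levels on the log2 scale within a replicate number used an offset of 0.5. The alternatives were edgeR with RLE factors, DESeq2 1.42.0, limma-voom 3.58.1, no filter, the replicate number as a block, only the groups compared, clones as units, and each library left out. Same-numbered libraries of different groups deviated together from their group means, with r from 0.35 to 0.81 in all 10 pairs of groups over 16490 genes. The number was therefore taken to pair the libraries in the fit with the block. The main fit and its intervals leave the number out, since the labels do not say what it marks. The replicate term itself was tested after its effect had been seen. The fitting steps were tested on simulated counts. Intervals of counts cover counting error only.

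The 10 genes and the gene lists were chosen with earlier results of these data known. Named besides the 10 were up to 4 called genes of each list, or the one with the smallest adjusted p where none was called, and the 5 genes most like SLFN11 and ETAA1. ETS1, EZH2, SLFN5, SLFN13, RPA3, RAD17 and the markers of other cell types were named after their values were seen. Promoters are from RefSeq.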

Additional observations from a re-analysis of the deposited data

How the results depend on the processing

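The higher level of SLFN11, ETAA1 and HLTF kept its direction in all 16 alternatives, with log2 fold changes of 0.82 to 0.97, 0.93 to 1.18 and 0.74 to 1.13. Their calls held in 6, 15 and 12 of the 16. With 1 library left out, 0 to 3 of the 10 genes passed for the mean of the clones, 0 without replicate 2 of PEO1. For single clones the range was 0 to 2 for ABTr1, 0 to 1 for ABTr2, 0 to 1 for ABTr3 and 0 throughout for ABTr4. A group left with 1 library was assumed to vary like the others. With only the groups compared in the fit, the count was 0 for ABTr1, 0 for ABTr2, 0 for ABTr3 and 0 for ABTr4, from fewer samples. DESeq2 called 2 genes for ABTr2, 3 for ABTr3 and 2 for ABTr4. Its share of all genes for single clones is not given here, and for the mean of the clones it called more genes than edgeR. With the replicate block, which uses the pairing, 4 genes passed for ABTr1, 3 for ABTr2, 3 for ABTr3 and 3 for ABTr4, and TIMELESS passed for the mean. TIMELESS ranged from -1.33 to -0.37, and TOPBP1, CHEK1 and WEE1 changed sign in 2, 1 and 1 alternatives without being called.

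Over all genes 2631 passed for the mean of the clones, 4072 with DESeq2, 5699 with the replicate block and 918 to 2527 with 1 library left out. The cause of these differences was not tested. SLFN5 was -0.87 without replicate 1 of PEO1 and 1.85 without replicate 2 of PEO1. For ATR, CHEK1 and WEE1 the SE of the log2 fold change was 0.43, 0.41 and 0.44 without the replicate block and 0.17, 0.20 and 0.26 with it, and none of the 3 was called in either fit.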
